A study of Danio rerio with 6 samples.

Results

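The Myc genes mycb (ENSDARG00000007241), myca (ENSDARG00000045695) and mych (ENSDARG00000077473) were followed through a bulk RNAseq experiment on zebrafish Müller glia (MG), the radial glia of the retina that divide and form progenitors after injury. The genes were chosen by name and are 3 of the 23510 genes in the count table. The gene name table used here lists the first pair of identifiers simply as MYC, so the names mycb and myca were taken as given. There were 6 libraries in 3 groups of 2. The first group came from homozygous mycb mutant fish at 2 days post injury (dpi), the second from Wt fish at 2 dpi, and the last from uninjured Wt fish. For its RNAseq of MG the study describes repeated needle poke injuries to each injured retina. All groups carried the gfap:GFP transgene, in which the gfap promoter drives GFP, and GFP+ cells were sorted from pooled retinas of adult fish of both sexes. GFP from this promoter marks MG, injury-activated MG and young progenitors that still hold the protein, so a library is a mixture of these states. There was no uninjured mycb mutant group, which means that the mutation was compared with Wt only after injury. Where mutant MG are set against uninjured Wt MG, genotype and injury differ together, and their parts cannot be told apart.

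Myc proteins are transcription factors of the basic helix-loop-helix leucine zipper class. They bind E-box sequences as a dimer with Max, and in mammals they raise the expression of genes for ribosome production, nucleotide synthesis and cell cycle entry. Mxd, Mxi1, Mnt and Mga compete for Max, and the dimers they form act mostly as repressors. Teleosts kept more Myc genes than mammals: myca and mycb are copies of the mammalian Myc gene, and mych is a Myc family member found in fish. Myc is one of the factors that reprogram mammalian fibroblasts to pluripotency, and the fish genes are studied in the retina because MG reprogramming precedes regeneration.

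The mutant allele is a deletion within the second exon of mycb that shifts the reading frame and leads to a premature stop. It was made with a pair of guide RNAs that direct Cas9 to this exon. The guide sequences are shown as listed, under the name of mycb. Each guide was read whole from its listed template oligo. Capitals mark the bases that it shares with a separate oligo, listed for the U6 transgene of the same guide. The lower case gg at the start of guide 1 lies outside that shared part. The guides were not matched to the genome here.
mycb guide 1: ggGGAGCGGTTTCTCCGCAG
mycb guide 2: GGGAAGGGGTCTGACAGGGA
Each guide has 20 bases, of which 18 in guide 1 and 20 in guide 2 are shared with the U6 oligo. Reads were summed per gene, so the deletion itself could not be seen in these values. A deleted stretch also takes reads away from mycb, and this cannot be told apart from a lower amount of mycb RNA. Reads that fit more than 1 of the Myc copies were divided among them by estimation, which leaves the values of similar copies uncertain.

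The libraries held between 47088844 and 64353562 counts, and 20329 genes passed the filter on low counts. Levels are given as CPM, the count of a gene relative to the TMM-scaled size of its library. A gene was called higher or lower when the quasi-likelihood test of edgeR gave a p of at most 0.05, after Benjamini-Hochberg adjustment over all tested genes, and its log2 fold change was beyond 0.5 in either direction. The sort label was checked against glial genes: 3 of 7 MG markers were matched (gfap, rlbp1a and cahz), and their summed level was 709 to 1021 CPM in mycb mutant libraries, 2986 to 3226 CPM in Wt 2 dpi libraries and 1956 to 2525 CPM in uninjured Wt libraries. RNA of cone photoreceptors, which the sort should leave out, was high in every library. The 8 matched cone markers of 11 summed to 54432 to 59384 CPM in mycb mutant, 19717 to 22012 CPM in Wt 2 dpi and 29548 to 41484 CPM in uninjured Wt libraries. The 5 matched rod markers of 10 summed to 1648 to 1732 CPM in mycb mutant, 197 to 321 CPM in Wt 2 dpi and 2058 to 3299 CPM in uninjured Wt libraries. The 4 matched microglia markers of 5 summed to 23.6 to 32.0 CPM in mycb mutant, 13.3 to 19.6 CPM in Wt 2 dpi and 4.1 to 5.0 CPM in uninjured Wt libraries. At 2 dpi most of this sum was coro1a (16.5 and 23.3 CPM in mycb mutant, 8.94 and 14.6 CPM in Wt libraries). Mean levels of coro1a and csf1ra were higher, and those of c1qa and p2ry12 lower, in mycb mutant than in Wt 2 dpi libraries. None of the 4 was called in that comparison. None of these markers had a count of 0 in any library. Glial markers were thus lower, and cone and rod markers higher, in mycb mutant than in Wt 2 dpi libraries. The 3 matched bipolar markers summed to 102 to 175 CPM in mycb mutant and 286 to 366 CPM in Wt 2 dpi libraries. In uninjured Wt libraries they summed to 353 to 417 CPM. Of these bipolar markers vsx1 had nearly the same mean in mycb mutant and Wt 2 dpi libraries (28.7 and 28.8 CPM), while 2 were called lower in the mutant. The 3 matched amacrine markers summed to 459 to 503 CPM in mycb mutant and 492 to 553 CPM in Wt 2 dpi libraries. In uninjured Wt libraries that sum was 1303 to 1405 CPM. The amacrine markers differed among themselves: gad2 had a mean of 138 CPM in mycb mutant and 226 CPM in Wt 2 dpi libraries. The means of slc6a9 (254 and 228 CPM) and tfap2a (89.0 and 68.5 CPM) were higher in the mutant. Ganglion and endothelium markers were highest in uninjured Wt libraries. Fewer cells of a type and less RNA per cell cannot be told apart in such samples, and the part of this mixture in the results on Myc genes was not tested.

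The first question was what the mutation did to the level of mycb itself. In mycb mutant MG at 2 dpi mycb had 6018 and 5643 counts, in Wt MG at 2 dpi 13495 and 8991 counts, and in uninjured Wt MG 13936 and 7564 counts. On the scaled level this was 127 CPM in each mycb mutant library, 205 and 157 CPM in Wt 2 dpi libraries, and 235 and 139 CPM in uninjured Wt libraries. Both mutant libraries were therefore below every Wt library, whereas the Wt 2 dpi values lay inside the range of the uninjured values. The fitted change in mutant against Wt 2 dpi MG was -0.50 on the log2 scale (SE 0.25, 95% confidence interval -1.05 to 0.05, adjusted p = 0.186, edgeR), which did not pass the test. Against uninjured Wt MG it was -0.55 (SE 0.25, interval -1.10 to -0.0019, adjusted p = 0.136, edgeR), again not called, although this comparison passed in 2 of the alternative analyses. Reads assigned to mycb thus remained in the mutant, at a fitted level 1.42-fold below Wt 2 dpi MG with an interval that includes no change.

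Injury was then examined in Wt MG. For mycb the means were 180.6 ± 33.9 CPM at 2 dpi and 187.0 ± 67.5 CPM in uninjured retinas (SD, n = 2 each). The log2 change was -0.05 (SE 0.25, interval -0.60 to 0.50, adjusted p = 0.902, edgeR). In linear terms the interval runs from 0.660 to 1.41 times the uninjured level. The direction depended on single libraries: it was 0.38 without uninjured Wt replicate 1 and -0.35 without uninjured Wt replicate 2.

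The fish-specific gene mych behaved differently. It had 92.9 and 92.0 CPM in mycb mutant libraries, 296 and 205 CPM in Wt 2 dpi libraries, and 53.0 and 30.3 CPM in uninjured Wt libraries. The 3 groups did not overlap, with Wt 2 dpi at the top, mycb mutant in the middle and uninjured Wt at the bottom. In Wt MG mych was 6.01-fold higher at 2 dpi than without injury (log2 2.59, SE 0.28, interval 1.96 to 3.22, adjusted p = 0.000119, edgeR). It was the only one of the 3 genes called in the injury comparison, where 36.6% of all tested genes were called (19.2% higher and 17.4% lower), and it ranked 1565 of 20329 by increase. In mycb mutant MG at 2 dpi mych was 2.71-fold lower than in Wt MG at 2 dpi (log2 -1.44, SE 0.27, interval -2.04 to -0.83, adjusted p = 0.00568, edgeR). It was nevertheless 2.22-fold higher than in uninjured Wt MG (log2 1.15, SE 0.27, adjusted p = 0.0114, edgeR). The mutant level was thus 92.5 ± 0.682 CPM, against 250.4 ± 64.2 CPM in Wt 2 dpi and 41.7 ± 16.0 CPM in uninjured Wt libraries (SD, n = 2 each).

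The other Myc copy, myca, moved in the opposite direction in the mutant. It had 83.9 and 71.2 CPM in mycb mutant libraries, 33.8 and 32.8 CPM in Wt 2 dpi libraries, and 32.3 and 35.8 CPM in uninjured Wt libraries. Both mutant libraries stood above all 4 Wt libraries, and the 4 Wt libraries overlapped. In mutant MG myca was 2.33-fold higher than in Wt MG at 2 dpi (log2 1.22, SE 0.17, interval 0.83 to 1.61, adjusted p = 0.00194, edgeR). It was also 2.28-fold higher than in uninjured Wt MG (log2 1.19, SE 0.17, adjusted p = 0.000962, edgeR). Injury alone left it at 33.3 ± 0.683 CPM in Wt 2 dpi and 34.1 ± 2.47 CPM in uninjured Wt libraries (SD, n = 2 each), a log2 change of -0.03 (interval -0.42 to 0.35, adjusted p = 0.906, edgeR). Of the 3 genes 2 were called in mutant against Wt 2 dpi MG, 1 in each direction, where 20.4% of tested genes were called (8.21% higher and 12.2% lower). In mutant against uninjured Wt MG 2 were called, both higher, where 25.6% of tested genes were called (12.2% higher and 13.4% lower). The comparisons share libraries, so they are not independent of each other. The calls for myca and mych in these comparisons held under every scaling, filter and left-out library tried.

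**Figure D1:**
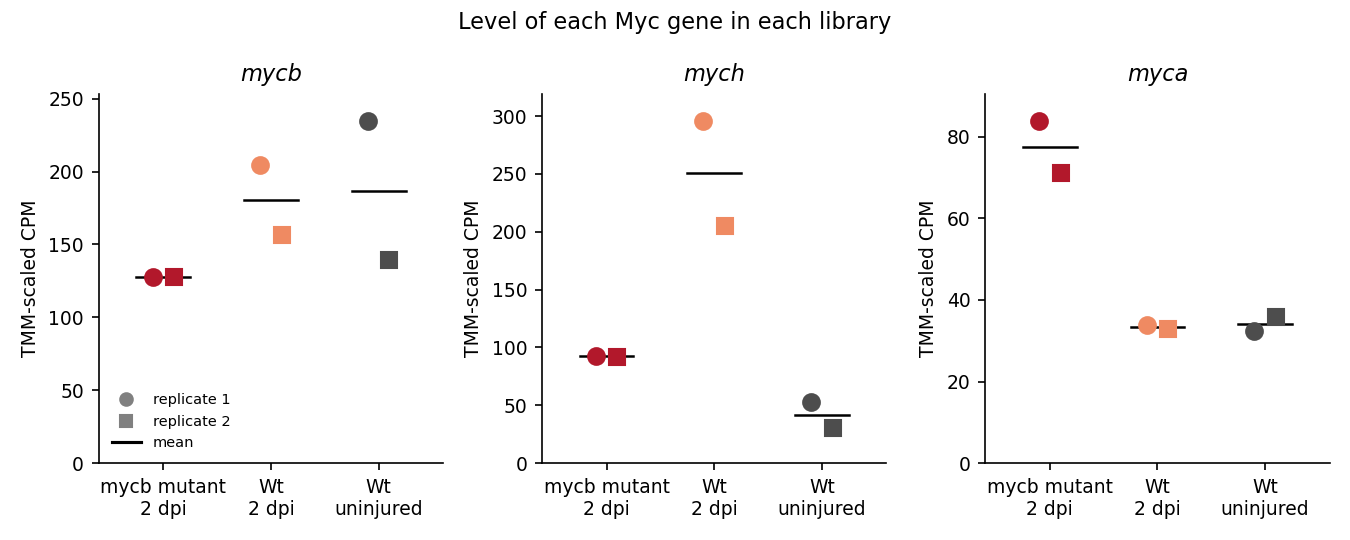
Level of mycb, mych and myca (vertical axes, TMM-scaled CPM, starting at 0) in each library of the mycb mutant 2 dpi, Wt 2 dpi and uninjured Wt groups; circles are replicate 1, squares replicate 2 and lines the group means. The mutant libraries lie at 127 CPM for mycb, 92.0 to 92.9 CPM for mych and 71.2 to 83.9 CPM for myca.

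The balance between the 3 genes was examined within each library, since a ratio of counts from the same library does not depend on scaling. These ratios are not corrected for gene length, so only their differences between groups can be read. The deleted stretch takes reads from mycb in the mutant, so mutant differences in ratios to mycb include this loss. Its size was not measured. There were 0.729 and 0.722 mych counts for each mycb count in mycb mutant libraries, 1.45 and 1.31 in Wt 2 dpi libraries, and 0.226 and 0.218 in uninjured Wt libraries. The replicates of each group nearly coincide in this ratio, while the groups are far apart. On the log2 scale the ratio of mych to mycb was 0.92 lower in mutant than in Wt 2 dpi MG (difference -0.92), 1.71 higher in mutant than in uninjured Wt MG and 2.63 higher in Wt 2 dpi than in uninjured Wt MG. The pooled SD between replicates in these comparisons was 0.072, 0.027 and 0.076.

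There were 0.658 and 0.559 myca counts for each mycb count in mycb mutant libraries, 0.165 and 0.209 in Wt 2 dpi libraries, and 0.138 and 0.257 in uninjured Wt libraries. This ratio was higher in the mutant than in both Wt groups, by 1.71 on the log2 scale against Wt 2 dpi MG and by 1.69 against uninjured Wt MG. The Wt groups overlapped (difference -0.02). There were 1.11 and 1.29 mych counts for each myca count in mycb mutant libraries, 8.76 and 6.25 in Wt 2 dpi libraries, and 1.64 and 0.847 in uninjured Wt libraries. Here the mutant overlapped with uninjured Wt MG (difference 0.02) and lay far below Wt 2 dpi MG (difference -2.63). With 2 libraries against 2, the two-sided exact permutation test cannot give less than p = 0.333. The exact test gave that value for the 7 of 9 ratio comparisons whose groups did not overlap and p = 1 for the other pair (0.429 and 1 in this exact test after Benjamini-Hochberg adjustment over the 9 comparisons).

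**Figure D2:**
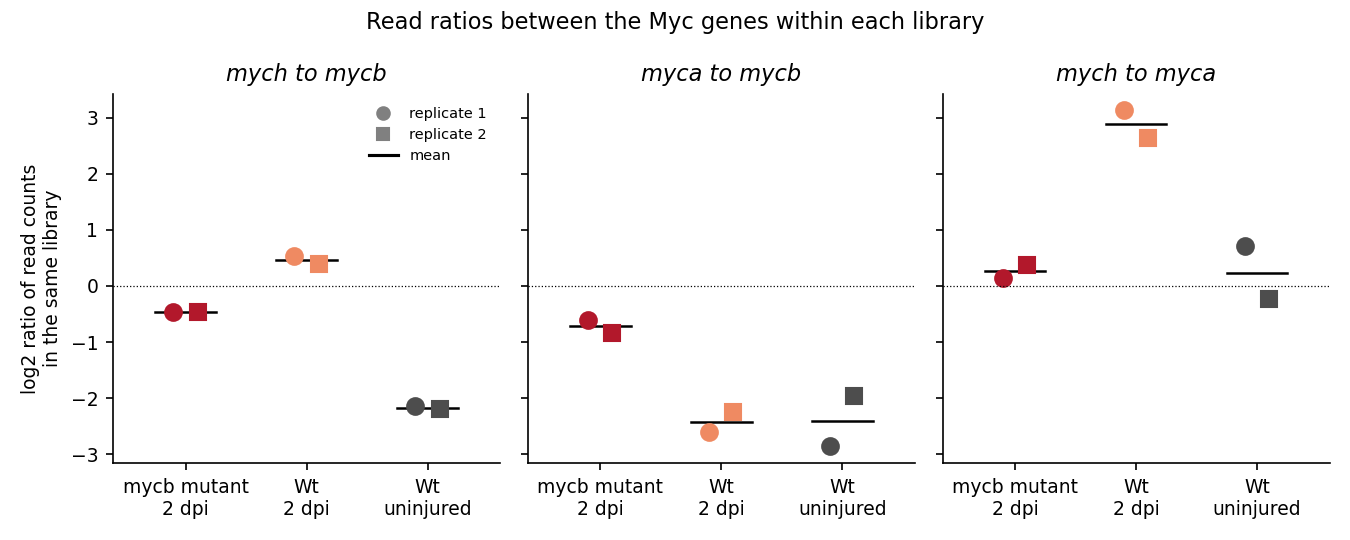
Log2 ratio of read counts between pairs of the Myc genes in the same library (vertical axis), by group; circles are replicate 1, squares replicate 2 and lines the group means. In the left panel the libraries of the same group lie within 0.143 of each other, and the group means are -0.46 for mycb mutant, 0.46 for Wt 2 dpi and -2.17 for uninjured Wt.

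As a share of the reads of the 3 genes, mycb made up 42.9% in mycb mutant, 39.0% in Wt 2 dpi and 70.6% in uninjured Wt libraries on average. The share of mych was 31.1% in mycb mutant, 53.7% in Wt 2 dpi and 15.7% in uninjured Wt libraries. The share of myca was 26.0% in mycb mutant, 7.32% in Wt 2 dpi and 13.8% in uninjured Wt libraries. The sum of the 3 genes was 297.5 ± 9.65 CPM in mycb mutant, 464 ± 98.8 CPM in Wt 2 dpi and 263 ± 81.1 CPM in uninjured Wt libraries (SD, n = 2 each). Like the ratios, these shares and sums are not corrected for gene length.

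The remaining Myc family was measured beside these genes. mycn, a copy of the mammalian Mycn gene, had 23.7 and 16.3 CPM in mycb mutant libraries, 9.40 and 10.8 CPM in Wt 2 dpi libraries, and 9.87 and 11.8 CPM in uninjured Wt libraries. It was higher in mutant than in Wt 2 dpi MG (log2 0.99, SE 0.25, adjusted p = 0.0226, edgeR) and did not pass the injury comparison (log2 -0.10, adjusted p = 0.797, edgeR). The mutant call of mycn was lost with library size scaling, without either Wt 2 dpi library and without mycb mutant replicate 1 (log2 0.69 to 1.39 over the 13 alternatives, adjusted p up to 0.166). A gene that the name table calls MYCL without a copy letter (ENSDARG00000034956) had 286 and 210 CPM in mycb mutant libraries, 87.3 and 71.9 CPM in Wt 2 dpi libraries, and 62.1 and 77.2 CPM in uninjured Wt libraries. MYCL was higher in mutant than in Wt 2 dpi MG (log2 1.64, SE 0.21, adjusted p = 0.00135, edgeR) and than in uninjured Wt MG (log2 1.83), and it was not called after injury (log2 0.19, adjusted p = 0.513, edgeR), and both of its mutant calls held under all 13 alternatives. For mycla, a copy of the mammalian Mycl gene, the group means were 20.4 CPM in mycb mutant, 20.7 CPM in Wt 2 dpi and 21.1 CPM in uninjured Wt libraries, and no comparison passed. In this family myca, mycn and MYCL were therefore the genes called higher in mutant against Wt 2 dpi MG, and mych the one called lower. Summed over these 6 genes the family had 586 ± 70.7 CPM in mycb mutant, 575 ± 112 CPM in Wt 2 dpi and 364 ± 72.3 CPM in uninjured Wt libraries (SD, n = 2 each). The first pair of sums overlaps. CPM are not corrected for gene length and the make-up of the family differed, so similar sums need not mean similar amounts of family RNA. MYCL gave 42.0% of the family's reads in mycb mutant, 13.9% in Wt 2 dpi and 19.8% in uninjured Wt libraries.

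**Figure D3:**
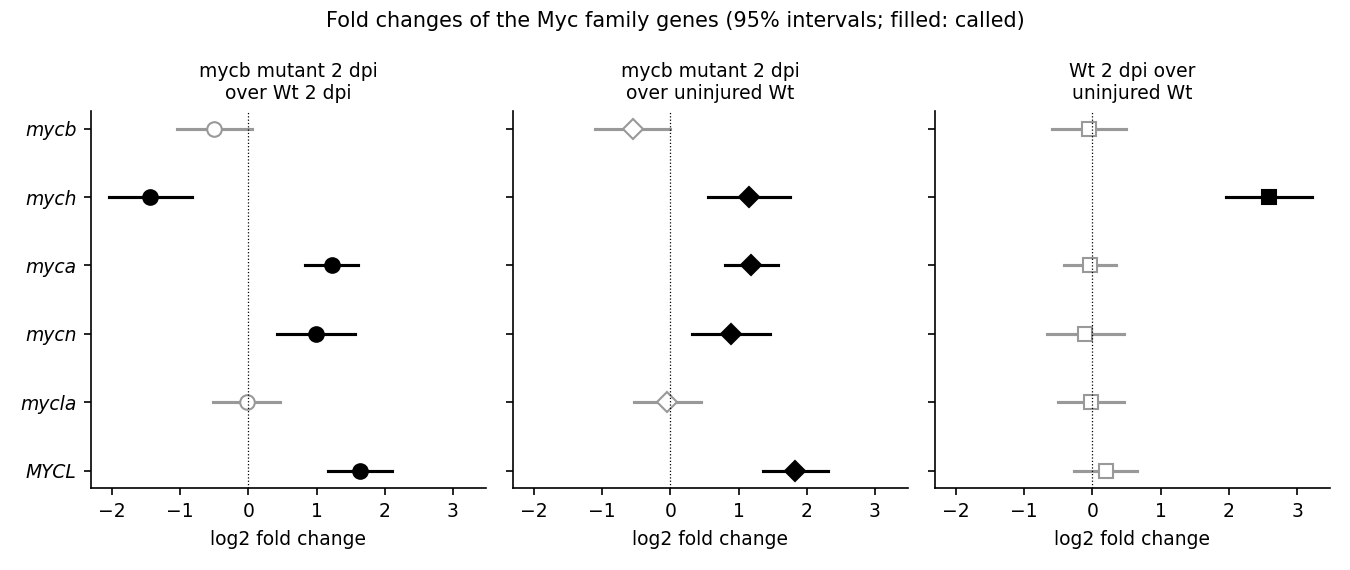
Fitted log2 fold changes (horizontal axes) with 95% confidence intervals for the 6 Myc family genes in the 3 comparisons; filled symbols passed the test and open symbols did not. mych is 2.59 in the injury comparison and -1.44 in mutant against Wt 2 dpi MG, where myca (1.22), mycn (0.99) and MYCL (1.64) are higher.

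Max and the proteins that compete for it were examined next. Of 15 network symbols, 10 were matched, mycn and mycla among them. In injured against uninjured Wt MG 1 was called higher and 4 lower, and in mutant against Wt 2 dpi MG 5 were called higher and none lower (over all tested genes 19.2% were higher and 17.4% lower after injury, and 8.21% higher and 12.2% lower in the mutant). The median log2 change was -0.40 after injury and 0.58 in the mutant, against -0.00069 and -0.13 over all tested genes. With library size scaling 2 were higher and 1, max, was lower in the mutant, and without either Wt 2 dpi library or without mycb mutant replicate 1 there were 2 higher and none lower. In each of these settings the 2 were mgaa and mlxip, whose mutant calls held under all 13 alternatives. No called gene of this list changed sign under any alternative. max, the shared dimer partner, had 107 and 116 CPM in mycb mutant libraries, 151 and 150 CPM in Wt 2 dpi libraries, and 93.2 and 101 CPM in uninjured Wt libraries. The levels of max separate Wt 2 dpi from the other groups, with a call after injury (log2 0.63, SE 0.16, adjusted p = 0.0114, edgeR) and none in the mutant (log2 -0.43, adjusted p = 0.085, edgeR). The injury call of max was lost without uninjured Wt replicate 1 and without either Wt 2 dpi library (log2 0.58 to 0.71 over the 13 alternatives, adjusted p up to 0.0729), and that of mlxip without any 1 of the 4 Wt libraries.

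Several genes for Max competitors and related proteins were called in the other direction. mxi1, a Max partner that represses Myc targets in mammals, had 73.6 and 64.5 CPM in mycb mutant libraries, 39.9 and 46.4 CPM in Wt 2 dpi libraries, and 99.3 and 99.1 CPM in uninjured Wt libraries. Its 3 groups did not overlap, and mxi1 was lower after injury (log2 -1.20, adjusted p = 0.000523, edgeR) and higher in the mutant than in Wt 2 dpi MG (log2 0.68, adjusted p = 0.0196, edgeR). mgaa, a copy of the Mga gene, had 44.3 and 33.6 CPM in mycb mutant, 17.5 and 15.0 CPM in Wt 2 dpi and 40.3 and 36.3 CPM in uninjured Wt libraries. The mutant values of mgaa overlapped with those of uninjured Wt MG, and the gene was lower after injury (log2 -1.24) and higher in mutant than in Wt 2 dpi MG (log2 1.26). mxd4, another Max-binding repressor gene, changed likewise (log2 -1.31 after injury and 1.22 in the mutant), with the injury call lost without Wt 2 dpi replicate 2 or uninjured Wt replicate 2. Its mutant replicates were far apart (26.2 and 12.2 CPM, against 9.52 and 6.90 CPM in Wt 2 dpi libraries). The mutant calls of mxi1 and mxd4 were lost with library size scaling, without either Wt 2 dpi library and without mycb mutant replicate 1. mlxip, which encodes a partner of the Max-like protein Mlx, was lower after injury (log2 -0.96) and higher in the mutant (log2 1.74). The Mlx gene itself, mlx, was not called in either comparison, nor were mxd1 and mxd3. There were 2 further genes named MNT, and these were read apart from the list because they carry no copy letter. ENSDARG00000073988 was lower after injury (log2 -1.02, adjusted p = 0.0155) and not called in the mutant (log2 0.62, adjusted p = 0.142), whereas ENSDARG00000101859 was higher in the mutant (log2 0.75, adjusted p = 0.0283) and not called after injury (log2 -0.33, adjusted p = 0.246, all edgeR). The injury call of ENSDARG00000073988 was lost without either Wt 2 dpi library or uninjured Wt replicate 2 (adjusted p up to 0.153), and the mutant call of ENSDARG00000101859 with library size scaling, without either Wt 2 dpi library and without mycb mutant replicate 1 (adjusted p up to 0.17, edgeR).

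Partners of Myc proteins and the genes that control their turnover were read from a list of 16 genes, all matched. After injury 7 were higher and 2 lower, where 19.2% of all tested genes were higher and 17.4% lower. In mutant against Wt 2 dpi MG 5 were lower and 1 was higher, where 12.2% of all tested genes were lower and 8.21% higher. The median log2 change was 0.53 after injury and 0.025 in the mutant. Single libraries mattered in both comparisons. The lower calls after injury depended on Wt 2 dpi replicate 1 and on uninjured Wt replicate 1. The injury median includes usp28, which had 0 and 36 counts in Wt 2 dpi and 2 and 0 in uninjured Wt libraries. That median was 0.33 with the compared groups alone, where 15 genes passed the filter, and 0.051 without Wt 2 dpi replicate 2. With a gene so near the floor in the list, these shifts are not read as a change of the other genes. In the mutant 1 gene was lower and none higher without mycb mutant replicate 2, and 2 were lower without Wt 2 dpi replicate 1 or mycb mutant replicate 1. The genes lower in the mutant were wdr5 (log2 -0.77), which encodes a chromatin protein that Myc binds in mammals, ruvbl1 (-0.70) and ruvbl2 (-1.08), which encode paired ATPases of chromatin remodelling complexes, skp2 (-0.94), which encodes a ubiquitin ligase subunit, and aurka (-1.54), a mitotic kinase gene. All 5 were among the genes higher after injury, by log2 1.17 for wdr5, 1.42 for ruvbl1, 2.25 for ruvbl2, 2.23 for skp2 and 5.20 for aurka. The mutant call of skp2 was lost in most of the alternatives, while ruvbl2 kept its call in all of them. ep400, which encodes the motor of a histone exchange complex, was the gene with the opposite pattern (log2 -0.90 after injury and 0.91 in the mutant). Its injury call was lost without replicate 1 of either Wt group, and its mutant call with library size scaling, without Wt 2 dpi replicate 1 and without mycb mutant replicate 2. fbxw7, which encodes the ubiquitin ligase subunit that marks Myc for degradation in mammals, was higher after injury (log2 0.74) and did not pass in the mutant (log2 -0.49, adjusted p = 0.0983, edgeR). kat2a was also higher and huwe1 lower after injury without a call in the mutant. The injury call of fbxw7 was lost without Wt 2 dpi replicate 2 or uninjured Wt replicate 1, that of kat2a without Wt 2 dpi replicate 1, and that of huwe1 without any 1 of the 4 Wt libraries. Neither trrap, zbtb17, hcfc1a, hcfc1b, kat5b nor usp36 passed in these comparisons. usp28 had at most 36 counts in any library and is given no fold.

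**Figure D4:**
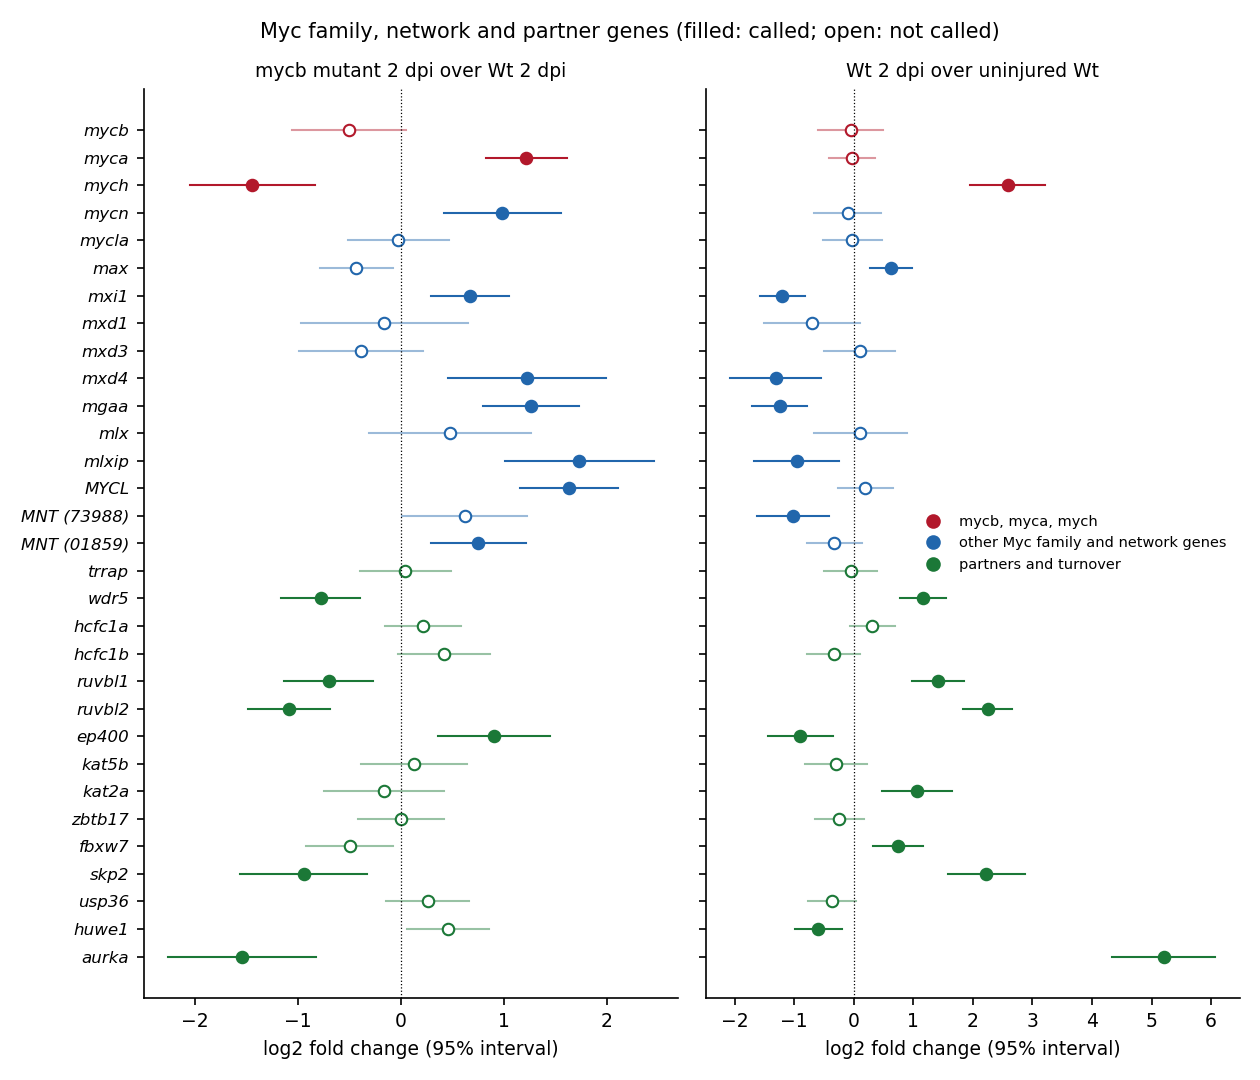
Log2 fold changes with 95% confidence intervals (horizontal axes) for the Myc genes, other family and network genes, and partners and turnover genes, in mycb mutant 2 dpi over Wt 2 dpi (left) and Wt 2 dpi over uninjured Wt (right); filled points passed the test and open points did not. The panels share the Wt 2 dpi libraries; mxi1, mxd4, mgaa and mlxip are below 0 on the right and above 0 on the left.

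A list of genes that Myc activates or represses in mammals was read in the same libraries, with 43 of 49 symbols matched. Whether the fish proteins regulate these genes was not measured. After injury 39 of 43 were higher and none lower, with a median log2 change of 1.88, where 19.2% of all tested genes were higher and 17.4% lower. The 4 that did not pass were ldha, cdk4, ccne2 and srm. In mutant against Wt 2 dpi MG 32 were lower and none higher, with a median of -0.99 against -0.13 over all tested genes, of which 8.21% were higher and 12.2% lower. This count was 17 without Wt 2 dpi replicate 1, 18 without mycb mutant replicate 1 and 22 without mycb mutant replicate 2, again with none higher. In mutant against uninjured Wt MG 36 were higher and 1, ldha, was lower, with a median of 0.92 (over all tested genes 12.2% were higher and 13.4% lower). Without uninjured Wt replicate 1 these counts were 23 higher and none lower, and ldha was not called without mycb mutant replicate 2 either. The proliferation markers, genes of DNA replication and mitosis, were measured beside them: the 9 markers summed to 455 to 551 CPM in mycb mutant, 1516 to 1566 CPM in Wt 2 dpi and 50.2 to 62.3 CPM in uninjured Wt libraries. The part of the number of dividing cells in these values was not tested.

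The members of this list with the largest change in the mutant were cdkn1a (log2 -2.25), the gene for the cell cycle inhibitor p21, which Myc represses in mammals, mcm5 (-2.25) and mcm4 (-1.77), which encode parts of the replicative helicase, and e2f2 (-1.86), a cell cycle transcription factor gene whose call was lost without Wt 2 dpi replicate 1 or mycb mutant replicate 1. cdkn1a had 11.8 and 14.5 CPM in mycb mutant libraries, 69.8 and 55.3 CPM in Wt 2 dpi libraries, and 15.6 and 8.28 CPM in uninjured Wt libraries. Its mutant values overlapped with uninjured Wt MG, which set it apart from mcm5, mcm4 and e2f2 in these libraries. Those remained higher in mutant than in uninjured Wt MG, by log2 4.27, 4.92 and 2.82. The smallest changes were those of srm (0.29), a polyamine synthesis gene, ccne2 (0.21), a cyclin gene, tert (0.07), which encodes the telomerase protein, and e2f1 (-0.07). For these 4 genes the mutant and Wt 2 dpi libraries overlapped.

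Myc genes are studied here beside other reprogramming genes, of which 7 of 9 were matched. After injury 5 were higher, and in mutant against Wt 2 dpi MG 3 were lower and none higher. With library size scaling or with no filter on low counts 4 were lower in the mutant, and by DESeq2 2 were. Over all tested genes 19.2% were higher after injury, and 12.2% were lower and 8.21% higher in the mutant. The median log2 change of the 7 genes was 1.44 after injury and -0.71 in the mutant, against -0.00069 and -0.13 over all tested genes. Both medians include klf4 and pou5f3, whose counts were near the floor. In the mutant the median was -1.51 without mycb mutant replicate 1. The proneural gene ascl1a had 56.2 and 65.2 CPM in mycb mutant, 246 and 229 CPM in Wt 2 dpi and 4.03 and 3.72 CPM in uninjured Wt libraries. ascl1a thus took the same order of groups as mych, with log2 changes of 5.94 after injury and -1.97 in the mutant. sox2, a stem cell factor gene, changed by 1.44 after injury and -1.78 in the mutant. her4.1, a Notch target gene with near-identical neighbours that make its counts uncertain, changed by 2.89 and -1.67, the second of which was not called without either Wt 2 dpi library, with the compared groups alone or by DESeq2. The genes with the smallest changes in the mutant included stat3 (-0.39) and hbegfa (-0.71), which were higher after injury (1.07 and 4.27) and not called in the mutant. klf4 and pou5f3, which complete the mammalian pluripotency set with sox2 and Myc, had at most 31 and 34 counts in any library and are given no fold.

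The spread between Wt replicates also differed among the 3 genes. In Wt 2 dpi MG replicate 1 was 1.31-fold above replicate 2 for mycb and 1.44-fold above it for mych, and in uninjured Wt MG the ratios were 1.69 for mycb and 1.75 for mych. For myca these ratios were 1.03 in Wt 2 dpi MG and 0.902 in uninjured Wt MG. The Wt libraries with more mycb thus also had more mych within each group. To see which other genes differed in this way, 3 lists were drawn up after the values had been seen, and they carry no test. The early response list held 22 Fos, Jun, Egr, Nr4a, Ier and related genes, many of which respond to a stimulus within minutes. Of these, 20 were higher in replicate 1 than in replicate 2 of both Wt groups, which holds for 23.5% of all tested genes. The exceptions were DUSP1 and NR4A3.

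Summed over the 22 genes the level was 4443 and 4076 CPM in mycb mutant, 5952 and 4196 CPM in Wt 2 dpi and 10319 and 6104 CPM in uninjured Wt libraries. The 3 Hsp70 genes matched (hsp70.1, hsp70.3 and hsp70l, which encode heat shock chaperones) summed to 1530 and 1730 CPM in mycb mutant, 3749 and 2283 CPM in Wt 2 dpi and 9758 and 5527 CPM in uninjured Wt libraries. All 3 Hsp70 genes were called lower after injury in the fit of all genes, where 17.4% of tested genes were lower. The list was drawn up after the values had been seen, so this is no test of it. These calls were not tried with a library left out. Uninjured Wt replicate 1 was the highest library for both sums, as it was for mycb. The 3 PIM kinase genes, which include PIM1, summed to 294 and 297 CPM in mycb mutant, 469 and 356 CPM in Wt 2 dpi and 553 and 319 CPM in uninjured Wt libraries. PIM1 was also the gene most like mycb over these same libraries, so its likeness to mycb here is no separate result. The part of these library differences in the levels of mycb and mych was not tested. Without uninjured Wt replicate 1 the injury change of mych was 3.04 on the log2 scale, and without Wt 2 dpi replicate 1 the change of mych in the mutant was -1.15 and still called.

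**Figure D5:**
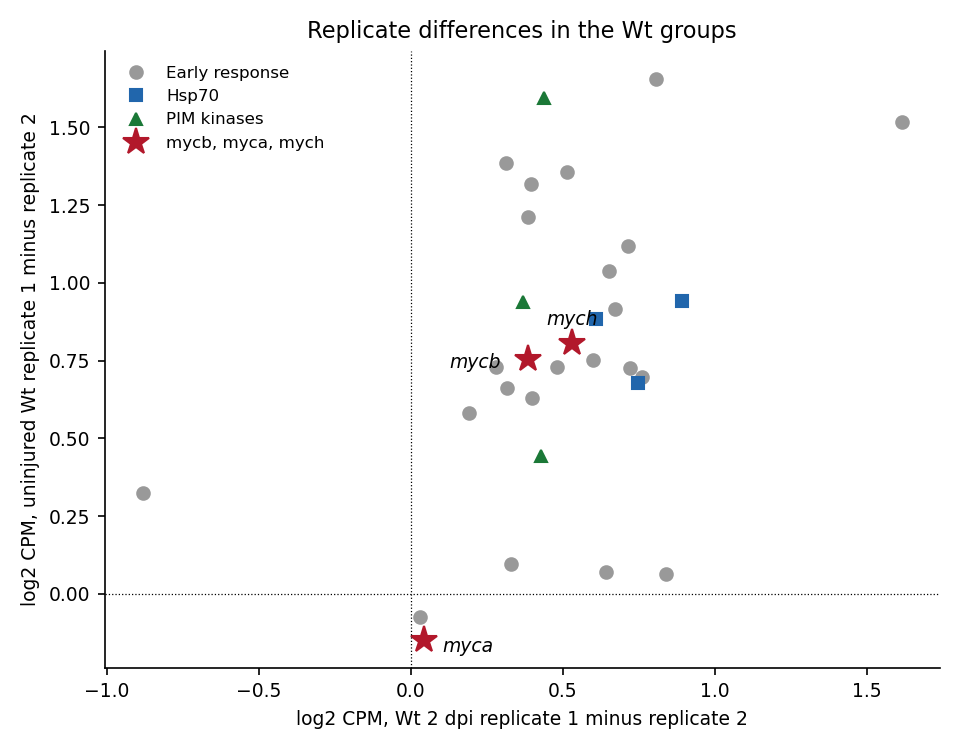
Log2 ratio of the CPM in replicate 1 over replicate 2 in Wt 2 dpi (horizontal axis) and uninjured Wt libraries (vertical axis) for mycb, mych and myca and for the early response, Hsp70 and PIM kinase genes, which were listed after the values had been seen. mycb (0.39 and 0.75) and mych (0.53 and 0.80) lie among the early response genes, and myca (0.04 and -0.15) lies near 0.

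The genes whose levels most resembled each Myc gene were ranked by the root mean square difference of log2 CPM, each gene centred on its mean over the 6 libraries, among 19295 genes. For mycb these were PIM1, a kinase gene, SLC19A1, a folate carrier gene, zgc:152951, si:ch211-117c9.5 and GBE1, which encodes the glycogen branching enzyme, with differences of 0.066 to 0.112. PIM1 had 159 and 151 CPM in mycb mutant, 254 and 197 CPM in Wt 2 dpi and 321 and 167 CPM in uninjured Wt libraries, the same order of libraries as mycb. Like mycb it was not called in the mutant (log2 -0.54, adjusted p = 0.204, edgeR). For myca they were DHX40, GLMN, EOGT, WDR47 and ldhbb (0.068 to 0.111). For mych they were TGFB2, a growth factor gene, eva1ba, ADM, a peptide hormone gene, ARL6IP6 and dnmt3bb.3, a DNA methyltransferase gene (0.109 to 0.185). Within a difference of 0.25 there were 309 genes for mycb, 102 for myca and 23 for mych. Between the Myc genes themselves the differences were 0.849 for mycb and myca, 1.09 for mycb and mych, and 1.28 for myca and mych, so none was near another.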

How the data were processed

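Sorted GFP+ MG from 6 samples were sequenced as polyA RNA. The submitters' processing notes name cutadapt 2.3, FastQC 0.11.8, STAR 2.7.8a, RSEM 1.3.3 and DESeq2, with GRCz11 and GRCh38 as builds; the genome here is zebrafish. The deposited table holds whole-number counts per Ensembl gene made by the authors from these reads, with no normalization. Groups came from sample titles; a treatment label of the Wt 2 dpi samples reads as untreated and was not followed. The study states that measurements came from distinct samples and that retinas were pooled for sorting. It does not say for these libraries whether replicates were separate pools of fish, so p-values measure the spread between these samples, which may be technical.

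Counts were analysed in R 4.3.3 with edgeR 4.0.16 (filterByExpr, minimum count 10; TMM; glmQLFit and glmQLFTest), all 6 libraries in 1 fit with 3 residual degrees of freedom. Log2 CPM used a prior count of 2. Alternatives were DESeq2 1.42.0, 3 other scalings, no filter on low counts, the compared groups alone, a replicate block, the adjusted p alone as call rule, another pseudocount for ratios, and each library left out. The script was tested on simulated data, where it called 159 of 200 changed genes (79.5%) and 11 unchanged genes in the mutant comparison. A gene that was not called may therefore still have changed. Named genes were the 3 Myc genes, the 5 genes most like each, all matched network and partner genes (1 further gene first listed as a partner is not reported here), and the 4 largest and 4 smallest changes in the mutant of the longer lists. Members and lists were chosen with earlier results of these data known. Guide sequences came from the study's oligo list. Gene positions and lengths were not used here.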

Additional observations from a re-analysis of the deposited data

How the results depend on the processing

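The calls of mych in all 3 comparisons and of myca in both mutant comparisons held under every alternative. In mutant against Wt 2 dpi MG mych ranged from -1.68 to -1.15 and myca from 1.097 to 1.49 with a library left out. mycb was not called there under any setting (adjusted p 0.0518 to 0.602), and ranged from -0.68 to -0.30 with a library left out. In mutant against uninjured Wt MG mycb was called with no filter on low counts (-0.55, adjusted p = 0.0243, edgeR; range over all alternatives 0.0243 to 0.786), and ranged from -0.72 to -0.13 with a library left out. It passed there without uninjured Wt replicate 2 (-0.72). The injury change ranged from -0.35 to 0.38 for mycb and from -0.11 to 0.067 for myca with a library left out. The injury difference in the log2 ratio of myca to mycb ranged from -0.47 to 0.43, and the mutant against uninjured difference in that of mych to myca from -0.46 to 0.50. With a library left out, genes called in mutant against Wt 2 dpi MG ranged from 1946, without Wt 2 dpi replicate 1, to 4418, against 4151 with all libraries, and were 2452 without mycb mutant replicate 1. Of those 4151, 40.2% were higher, a share that was 28.2% with library size alone, 52.0% with upper quartile scaling and 50.9% with the compared groups alone. The median log2 change of all genes in that comparison was -0.13 with TMM, -0.25 with library size alone and 0.00 with upper quartile scaling. Of the partner genes called in the mutant, ruvbl2 kept its call under all 13 alternatives and skp2 lost it in 9. With a replicate block 7426, 4268 and 5271 genes were called (injury, mutant, mutant against uninjured) and no Myc gene changed its call. Over all tested genes, same-numbered libraries did not deviate together (correlations -0.007, 0.018 and -0.044). This does not cover single genes, as mycb, mych and most early response genes were higher in replicate 1 of both Wt groups. Whether same-numbered libraries were handled together was not tested. With 2 libraries a group, the intervals of mycb are wide.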
